A study of Mus musculus with 16 samples.

Results

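Complement is described here through 9 listed genes: C1qa, C1qb and C1qc (the chains of C1q), C4b, C3, Cfp (properdin), Cfb (factor B), and the anaphylatoxin receptors C3ar1 and C5ar1. They were chosen by gene symbol, and 8 of them had a probe set among the 17097 named genes of the array. C3 had none in the probe table and was not analysed here. Each array carried amplified RNA of a pool of macrophages from fat of mice 19 to 21 weeks old, 4 pools a group, in the groups KO-LysM VAT, KO-LysM SAT, WT VAT and WT SAT. In each group pools 1 and 2 belong to day 1 and pools 3 and 4 to day 2. VAT is visceral and SAT subcutaneous adipose tissue. KO-LysM mice are LysM-Sucnr1-/-: in such a cross, Cre under the lysozyme M promoter removes floxed Sucnr1, the succinate receptor, in macrophages, monocytes and neutrophils. The mice labelled WT are Sucnr1flox/flox, so floxed alleles are common to all 4 groups and the controls are not unmodified wild type. Cells were digested out of fat with collagenase and held on CD11b beads, which also bind other myeloid cells, and a second label calls them positive for the Adgre1 product, a macrophage surface protein. The number of mice in a pool was not given in the sources used here, and the letters NCD, present in every group's label, were not spelled out.

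Complement is a cascade of blood and tissue proteins that marks microbes, dying cells and immune complexes for uptake. C1q starts the classical pathway by binding antibody or altered surfaces, and C4 is then cleaved to help form the enzyme that activates C3. In the alternative pathway factor B supplies the protease and properdin stabilises the C3-cleaving enzyme, while the small fragments C3a and C5a act on their own receptors on myeloid cells. Tissue macrophages are a main source of C1q, whereas stromal cells and the liver also make C4 and factor B.

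Promoter sequences are shown for C1qb, C1qc, C5ar1 and Cfp, the genes with an entry in the promoter table among those that passed in the comparison of the genotypes in SAT. They come from RefSeq (GRCm38.p6), each 300 bases around the gene's start, printed 5′ to 3′ on the minus strand. Capitals mark TGCTGA and AGGAAG on either strand. TGCTGA is a half-site of the Maf family of transcription factors. AGGAAG contains GGAA, the core bound by ETS factors such as PU.1. The windows are chr4:136886151-136886450 for C1qb, chr4:136892865-136893164 for C1qc, chr7:16259289-16259588 for C5ar1 and chrX:20931506-20931805 for Cfp.
C1qb: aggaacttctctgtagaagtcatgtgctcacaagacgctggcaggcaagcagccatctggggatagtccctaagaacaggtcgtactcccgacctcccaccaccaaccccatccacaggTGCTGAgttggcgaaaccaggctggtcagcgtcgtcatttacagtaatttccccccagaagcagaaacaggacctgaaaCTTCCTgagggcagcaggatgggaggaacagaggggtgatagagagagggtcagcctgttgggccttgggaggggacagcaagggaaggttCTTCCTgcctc
C1qc: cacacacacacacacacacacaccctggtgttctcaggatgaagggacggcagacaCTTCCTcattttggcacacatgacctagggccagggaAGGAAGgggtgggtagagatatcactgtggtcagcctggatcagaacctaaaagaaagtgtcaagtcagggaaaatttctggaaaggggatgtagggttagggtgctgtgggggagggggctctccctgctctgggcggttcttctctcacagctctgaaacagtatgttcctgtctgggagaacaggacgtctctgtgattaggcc
C5ar1: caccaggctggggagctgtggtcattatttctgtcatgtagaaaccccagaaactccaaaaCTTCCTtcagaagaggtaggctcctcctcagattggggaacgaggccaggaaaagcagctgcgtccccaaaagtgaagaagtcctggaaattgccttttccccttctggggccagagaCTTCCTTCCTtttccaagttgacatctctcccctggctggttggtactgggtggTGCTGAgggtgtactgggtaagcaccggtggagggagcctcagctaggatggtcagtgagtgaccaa
Cfp: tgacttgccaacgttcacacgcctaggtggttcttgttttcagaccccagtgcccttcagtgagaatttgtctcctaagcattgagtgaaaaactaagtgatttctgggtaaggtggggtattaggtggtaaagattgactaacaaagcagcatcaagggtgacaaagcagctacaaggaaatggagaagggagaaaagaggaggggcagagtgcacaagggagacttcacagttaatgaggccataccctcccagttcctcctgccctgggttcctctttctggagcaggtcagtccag
The C1qb window held 1 match to TGCTGA and 2 to AGGAAG, and the C1qc window held 2 matches to AGGAAG. C1qb and C1qc are neighbours on chromosome 4, in a cluster with C1qa. The C5ar1 window held 1 match to TGCTGA and 3 to AGGAAG, of which a pair overlaps, while neither motif occurred in the Cfp window. The bare GGAA was not counted, and it does occur in the Cfp window. Of 32851 promoters of the same length, 19.5% held TGCTGA and 35.4% held AGGAAG, so a match is only a description.

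Values are log2 RMA values, and a difference of 1 is a doubling. All 8 measured genes lay on every array above 4.78, the 95th percentile of 41 olfactory receptor genes. Sucnr1 averaged 3.53, 3.55, 3.52 and 3.54 in KO-LysM VAT, KO-LysM SAT, WT VAT and WT SAT, under that level in every group, so its probe set does not check the genotype. Mean expression of 9 macrophage markers ranged over the pools from 7.81 to 8.41 in KO-LysM VAT, 8.37 to 8.94 in KO-LysM SAT, 7.90 to 8.91 in WT VAT and 8.55 to 8.96 in WT SAT. Those markers include Lyz2, the lysozyme M gene. Lyz2 averaged 9.99 and 10.48 in VAT and SAT of KO-LysM mice and 10.57 and 11.12 in those of WT mice. In such a cross its promoter drives Cre, and the effect of that on the list was not tested. Markers of other tissues went against the depot labels of 1 genotype. Skeletal muscle markers (5 genes) averaged 6.45 in KO-LysM VAT, 5.08 in KO-LysM SAT, 5.28 in WT VAT and 8.39 in WT SAT, so the high depot was VAT in KO-LysM and SAT in WT. Seminal vesicle markers (5 genes) averaged 10.5 in KO-LysM SAT, against 4.57 in KO-LysM VAT and 4.69 and 5.09 in VAT and SAT of WT mice. For that list pool 2 of WT SAT reached 6.13, against 4.55 to 4.86 in the other pools of that group. The seminal vesicle is an abdominal organ. Depots are therefore named as labelled, and the comparisons across depot labels are given too. The interquartile range of values on an array was 2.49 ± 0.11 and 2.52 ± 0.12 in VAT and SAT of KO-LysM mice and 2.30 ± 0.26 and 2.20 ± 0.08 in those depots of WT mice (SD, n = 4), so spread also moved with genotype.

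**Figure D1:**
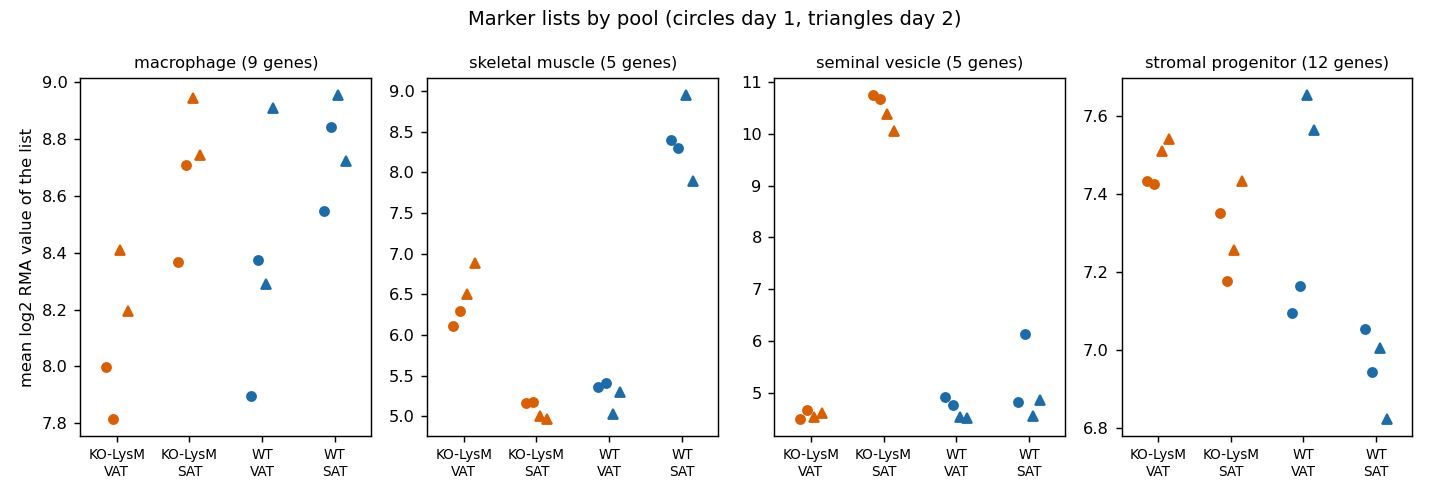
Mean log2 RMA value (vertical axis) of 4 marker lists in each pool, by group. The muscle list is highest in WT SAT (mean 8.39) and next in KO-LysM VAT (6.45). The seminal vesicle list is highest in KO-LysM SAT (mean 10.5), and pool 2 of WT SAT reaches 6.13.

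C4b had the widest range of the 8 genes. Its log2 value was 9.91, 9.74, 9.77 and 9.74 in KO-LysM VAT, 7.66, 7.09, 7.39 and 7.39 in KO-LysM SAT, 6.66, 7.13, 7.98 and 7.35 in WT VAT, and 9.02, 9.18, 9.14 and 8.40 in WT SAT. The KO-LysM VAT pools lay above all others and the WT SAT pools came next, with no overlap with KO-LysM SAT or WT VAT, which overlapped each other. Means were 9.79 ± 0.08, 7.38 ± 0.23, 7.28 ± 0.55 and 8.93 ± 0.36 in that order of groups (SD, n = 4). The probe set may also take up transcripts of the near-identical neighbour C4a, which could not be told apart from C4b.

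Cfp, the properdin gene, was set apart in WT SAT. The pools had 8.67, 8.64, 9.10 and 8.96 in KO-LysM VAT, 8.37, 8.62, 9.01 and 8.61 in KO-LysM SAT, 8.18, 8.24, 8.94 and 9.08 in WT VAT, and 9.59, 9.86, 10.06 and 9.65 in WT SAT. Every WT SAT pool lay above all 12 other pools, which overlapped one another. C5ar1, the receptor of C5a, had 9.70, 9.32, 10.07 and 10.02 in KO-LysM VAT, 9.95, 10.06, 10.29 and 10.14 in KO-LysM SAT, 9.62, 9.90, 9.96 and 10.52 in WT VAT, and 10.65, 10.77, 10.80 and 10.72 in WT SAT. Again the 4 WT SAT pools were the highest, and pool 4 of WT VAT was the nearest to them.

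The 3 C1q genes shared a pattern over the pools. C1qc, which codes for the C chain, had 7.32, 7.15, 8.14 and 7.93 in KO-LysM VAT, 7.65, 7.85, 8.33 and 7.93 in KO-LysM SAT, 7.19, 7.60, 7.82 and 8.68 in WT VAT, and 8.35, 9.04, 9.24 and 8.63 in WT SAT. C1qb, the B chain, had 8.38, 8.18, 8.98 and 8.89 in KO-LysM VAT, 8.75, 8.70, 9.34 and 9.01 in KO-LysM SAT, 8.40, 8.76, 8.84 and 9.79 in WT VAT, and 9.26, 9.65, 9.71 and 9.43 in WT SAT. C1qa, the A chain, ran from 6.43 to 7.58 in KO-LysM VAT, 7.18 to 7.73 in KO-LysM SAT, 6.30 to 8.16 in WT VAT and 7.62 to 8.17 in WT SAT. For each chain the WT SAT mean was the highest of the 4, and within WT VAT pool 1 was the lowest and pool 4 reached the values of WT SAT. Over 16 arrays, after each gene was centred on its own mean, the 2 genes closest to C1qa were C1qb and C1qc, at root mean square differences of 0.168 and 0.170 log2 units. C1qb was closest to C5ar1, at 0.154, and C1qc to Laptm5, which codes for a lysosomal membrane protein, at 0.158. C4b was closest to Hmga2, which codes for a chromatin protein, at 0.286, and the nearest of the other 7 genes was Cfb, at 0.899.

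C3ar1, the receptor of C3a, ranged from 10.59 to 11.13 in KO-LysM VAT, 11.08 to 11.42 in KO-LysM SAT, 10.73 to 11.35 in WT VAT and 11.39 to 11.56 in WT SAT. Its closest gene was Cst3, which codes for cystatin C, at 0.0887. Cfb ranged from 8.53 to 8.84 in KO-LysM VAT, 7.91 to 8.45 in KO-LysM SAT, 7.85 to 8.85 in WT VAT and 8.15 to 9.07 in WT SAT. Its closest gene was Stk16, at 0.152, and that of Cfp was Folr2, a folate receptor of tissue macrophages, at 0.243. Next for Cfp came B4galt6, at 0.259, and Pygm, which codes for muscle glycogen phosphorylase, at 0.264. The pools of KO-LysM VAT and KO-LysM SAT did not overlap for Cfb, nor did those of WT VAT and WT SAT for C3ar1. How many of all genes lack such overlap was not computed for any comparison.

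**Figure D2:**
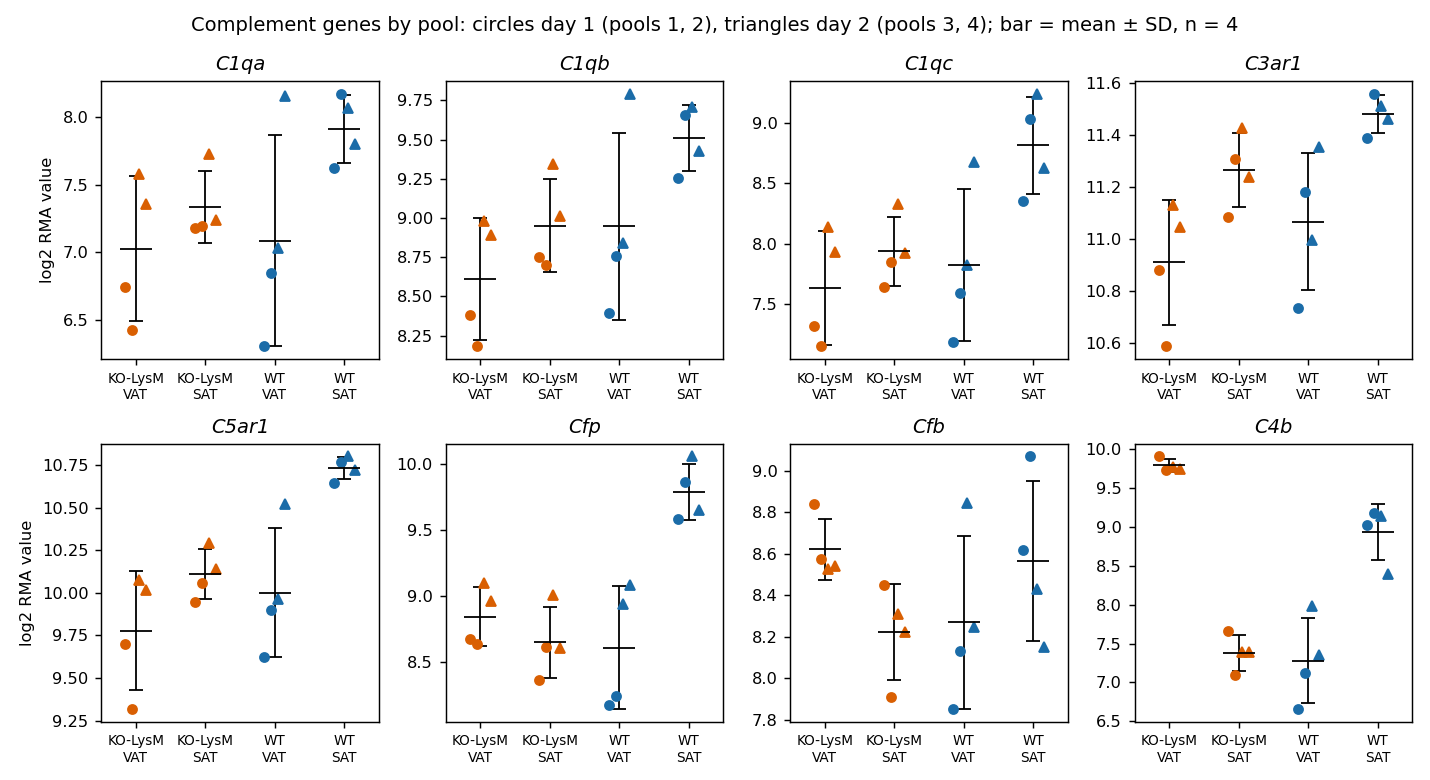
Log2 RMA values of the 8 measured genes (vertical axes, a scale for each gene) in the 4 pools of each group, with the mean and SD. C4b is high in KO-LysM VAT (9.79) and WT SAT (8.93), and Cfp and C5ar1 are highest in WT SAT (9.79 and 10.7).

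Between the genotypes in SAT, 5 of the 8 genes passed the test (limma, adjusted p under 0.05, all 16 arrays), at a background of 36.7% of all genes. C4b was 2.93-fold lower in KO-LysM SAT than in WT SAT (log2 change -1.55 ± 0.23 SE, adjusted p = 0.000546). Cfp was 2.20-fold lower (-1.14 ± 0.14, adjusted p = 0.000149), C1qc 1.84-fold lower (-0.88 ± 0.22, adjusted p = 0.00893) and C5ar1 1.54-fold lower (-0.62 ± 0.14, adjusted p = 0.00495). The groups did not overlap in these 4 genes, and the share of all genes without overlap was not computed. C1qb was 1.47-fold lower (-0.56 ± 0.19, adjusted p = 0.0325), a call that was lost when any of WT SAT pools 1, 2 and 3 or KO-LysM SAT pools 1, 2 and 4 was left out, with changes from -0.58 to -0.42. C1qa changed by -0.58 (adjusted p = 0.0832) but passed without WT VAT pool 4 (adjusted p = 0.0285), which enters through the shared spread. C3ar1 changed by -0.22 (adjusted p = 0.155) and Cfb by -0.35 (adjusted p = 0.191). The median change was -0.60 over the 8 genes and -0.05 over all genes. Within day 1 and day 2 the changes were -1.72 and -1.38 for C4b, -1.23 and -1.04 for Cfp, -0.71 and -0.54 for C5ar1, -0.95 and -0.81 for C1qc, and -0.73 and -0.39 for C1qb. Only 2 and 3 genes passed within day 1 and day 2, with 2 pools a group. In such pools fewer cells of a type and less RNA per cell cannot be told apart. Macrophage markers averaged 8.69 in KO-LysM SAT and 8.77 in WT SAT, T cell markers (6 genes, all above background in WT SAT) 5.18 and 6.53, and skeletal muscle markers 5.08 and 8.39. B cell markers (6 genes, 3 above background in KO-LysM SAT and 5 in WT SAT) averaged 4.94 and 5.69 in those groups. Endothelial markers (8 genes, 8 and 7 above background) averaged 6.81 and 5.76 there. Stromal progenitor markers (12 genes, 9 and 10 above background) averaged 7.30 in KO-LysM SAT and 6.95 in WT SAT. The part of these lists in the result was not tested.

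Between the genotypes in VAT, 1 of the 8 genes passed, against 15.9% of all genes. C4b was 5.69-fold higher in KO-LysM VAT than in WT VAT (2.51 ± 0.23, adjusted p = 1.31e-05), by 2.93 on day 1 and 2.09 on day 2. Every KO-LysM VAT pool was above every WT VAT pool. The other 7 changes ran from -0.34 for C1qb (95% confidence interval -0.74 to 0.06, adjusted p = 0.204) to 0.35 for Cfb (-0.09 to 0.80, adjusted p = 0.231). Cfb passed when WT VAT pool 3 was left out (0.56, adjusted p = 0.0413). Skeletal muscle markers averaged 6.45 in KO-LysM VAT and 5.28 in WT VAT, and stromal progenitor markers (12 genes, 11 above background in both groups) 7.48 and 7.37; their part in the result was not tested.

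The knockout effect differed between the depots as labelled for 2 of the 8 genes, against 4.22% of all genes. For C4b the effect in VAT minus that in SAT was 4.06 ± 0.32 (adjusted p = 1.6e-06), and for Cfp it was 1.37 ± 0.20 (adjusted p = 0.000668). The C4b effect was positive in VAT and negative in SAT. On day 1 and day 2 the difference was 4.65 and 3.47 for C4b and 1.68 and 1.06 for Cfp. The other 6 did not pass, from 0.06 for C3ar1 (-0.30 to 0.42) to 0.70 for Cfb (0.07 to 1.33, adjusted p = 0.295) and 0.69 for C1qc (0.04 to 1.34, adjusted p = 0.326). The contrast depends on the depot labels, and skeletal muscle markers had the same order of groups within each genotype as C4b, high in KO-LysM VAT and WT SAT; their part in the result was not tested.

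Averaged over both depots, which does not depend on depot labels within a genotype, 5 of the 8 genes passed, against 51.7% of all genes. C1qc (-0.53, adjusted p = 0.0114), Cfp (-0.45, adjusted p = 0.00291), C1qb (-0.45, adjusted p = 0.0131) and C5ar1 (-0.42, adjusted p = 0.00342) were lower in KO-LysM than in WT. C4b was higher by 0.48 (adjusted p = 0.0238), a mean of changes of opposite sign, and this call was lost without KO-LysM SAT pool 1 (0.42, adjusted p = 0.054), with quantile normalization (0.25, adjusted p = 0.102) and on day 2 alone (0.36, adjusted p = 0.169). With array spread as a term the C4b value was -0.18 (adjusted p = 0.545). C1qa (-0.32), C3ar1 (-0.19, adjusted p = 0.0759) and Cfb (0.00) did not pass, though C3ar1 did without WT VAT pool 1 or 3 (-0.23 and -0.21). Cfb passed as lower with quantile normalization (-0.29, adjusted p = 0.0313) and with array spread as a term (-0.59, adjusted p = 0.0198). On day 1 and day 2 the averaged changes were -0.55 and -0.51 for C1qc, -0.39 and -0.51 for Cfp, -0.51 and -0.39 for C1qb, -0.48 and -0.37 for C5ar1, and 0.60 and 0.36 for C4b. On day 2 alone 1 of the 8 genes passed. Centred on macrophage markers, Lyz2 among them, with the median of all genes at 0.12, C4b (0.65) and C1qc (-0.36, adjusted p = 0.0248) passed. Cfp (-0.28, adjusted p = 0.0914), C1qb (-0.28, adjusted p = 0.0862) and C5ar1 (-0.25, adjusted p = 0.116) did not. A second C5ar1 probe set gave -0.25 (adjusted p = 0.0203), while a second C3ar1 probe set gave -0.01 and another -0.20 (adjusted p = 0.179).

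**Figure D3:**
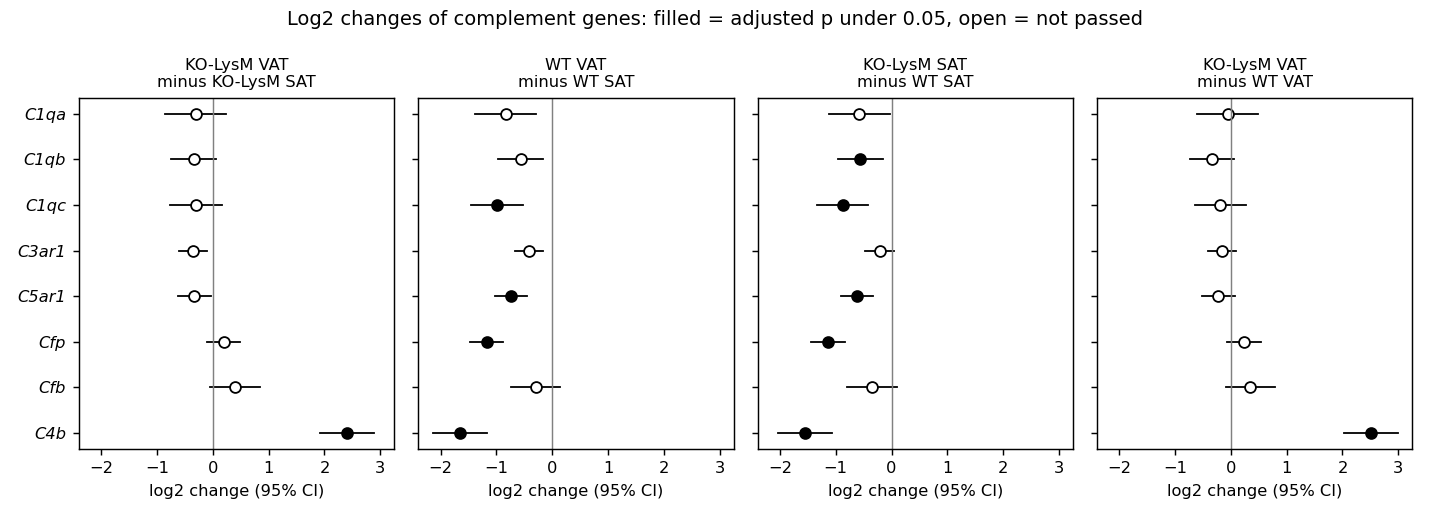
Log2 change (horizontal axis, with its 95% confidence interval) of each gene in the 4 comparisons within a genotype or a depot. Filled points passed at adjusted p under 0.05, with C4b at 2.40 and 2.51 in the KO-LysM VAT comparisons and at -1.66 and -1.55 in those with WT SAT.

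Between the depots of KO-LysM mice 1 of the 8 genes passed, against 4.32% of all genes. C4b was 5.30-fold higher in KO-LysM VAT than in KO-LysM SAT (2.40 ± 0.23, adjusted p = 1.46e-05), by 2.44 and 2.37 on day 1 and day 2. The C1q genes, C3ar1 and C5ar1 changed by -0.35 to -0.30 (adjusted p = 0.14 to 0.823) without passing, and Cfb by 0.40 (adjusted p = 0.483). Macrophage markers averaged 8.10 in KO-LysM VAT and 8.69 in KO-LysM SAT. With arrays centred on those markers, a setting added after the data were seen that puts the median of all genes in this comparison at 0.59, Cfp was higher by 0.78 and Cfb by 0.99 (adjusted p = 0.0015 for both). Skeletal muscle markers averaged 6.45 in KO-LysM VAT and 5.08 in KO-LysM SAT, and seminal vesicle markers 4.57 and 10.5. T cell markers averaged 5.70 and 5.18 in those groups, B cell markers 5.34 and 4.94, and stromal progenitor markers 7.48 and 7.30. Endothelial markers averaged 6.16 and 6.81 there. The part of these lists in the result was not tested.

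Between the depots of WT mice 4 of the 8 genes passed, against 2.84% of all genes. C4b was 3.15-fold lower in WT VAT than in WT SAT (-1.66 ± 0.23, adjusted p = 0.000953), Cfp 2.26-fold lower (-1.18 ± 0.14, adjusted p = 0.000324), C1qc 1.99-fold lower (-0.99 ± 0.22, adjusted p = 0.0225) and C5ar1 1.66-fold lower (-0.73 ± 0.14, adjusted p = 0.00906). C4b, Cfp and C5ar1 had no overlap between the groups, while C1qc overlapped through WT VAT pool 4. The share of all genes without overlap was not computed here either. C1qa (-0.83, adjusted p = 0.107), C1qb (-0.56, adjusted p = 0.144), C3ar1 (-0.41, adjusted p = 0.0821) and Cfb (-0.30, adjusted p = 0.569) did not pass. Without WT VAT pool 4, C1qa (-1.12, adjusted p = 0.00977) and C1qb (-0.78, adjusted p = 0.0114) passed. The C1qc call was lost when pool 2 or 3 of WT SAT, or pool 3 of WT VAT, was left out, with changes of -0.94 to -0.81. On day 1 and day 2 the changes were -2.21 and -1.10 for C4b, -1.51 and -0.84 for Cfp, -1.30 and -0.68 for C1qc, and -0.95 and -0.52 for C5ar1. With the 8 WT arrays fitted alone, only Cfp passed. Macrophage markers averaged 8.37 in WT VAT and 8.77 in WT SAT, and after centring on them, with the median of all genes at 0.38, C4b (-1.25), Cfp (-0.78) and C1qc (-0.59) passed and C5ar1 (-0.33, adjusted p = 0.116) did not. T cell markers averaged 5.51 and 6.53 in VAT and SAT of WT mice, B cell markers 5.20 and 5.69, and skeletal muscle markers 5.28 and 8.39. Stromal progenitor markers averaged 7.37 and 6.95 in those depots, and endothelial markers 6.19 and 5.76. The part of these lists in the result was not tested.

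Across the depot labels, KO-LysM SAT and WT VAT differed in 0 of the 8 genes by limma, with 0 also at an unadjusted p under 0.05, against 6.89% of all genes. C4b differed by 0.10 (95% confidence interval -0.38 to 0.59) and Cfp by 0.04 (-0.26 to 0.34). Between KO-LysM VAT and WT SAT 7 of the 8 genes passed, against 39.3% of all genes. C1qc (-1.18), C5ar1 (-0.96), Cfp (-0.94), C1qb (-0.90), C1qa (-0.89) and C3ar1 (-0.57) were lower in KO-LysM VAT than in WT SAT. Macrophage markers averaged 8.10 and 8.77 in these groups. After centring on them, with the median of all genes at 0.59, C1qc still passed as lower (-0.51, adjusted p = 0.0113). C1qa, C1qb, C5ar1 and Cfp then did not pass (-0.29 to -0.22, adjusted p = 0.114 to 0.268), and C3ar1 was 0.096. On day 2 alone C1qa, C1qb and C3ar1 did not pass (adjusted p = 0.283, 0.103 and 0.0567). C4b was higher (0.85, adjusted p = 0.0113), a call that was lost with array spread as a term (0.096, adjusted p = 0.822) and on day 1 alone (0.72, adjusted p = 0.068). Cfb differed by 0.05 (-0.39 to 0.50). It passed as higher with macrophage centring (0.72, adjusted p = 0.00618) and as lower with array spread as a term (-0.62, adjusted p = 0.0334). A second C3ar1 probe set changed by -0.30 (adjusted p = 0.0671), and another by -0.66 (adjusted p = 0.012).

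Among the other pathway genes, 44 were measured in lists of the classical, lectin and terminal proteins, regulators and receptors. Between the genotypes in SAT 11 were higher and 12 lower in KO-LysM, beside 36.7% of all genes called in either direction, and in VAT 4 were higher and 3 lower, beside 15.9%. Changes had medians over the 44 genes of -0.13 in SAT and -0.12 in VAT and of -0.05 over all genes in both. Between depots 2 were higher and 4 lower in VAT of KO-LysM, beside 4.32% of all genes, and 1 was higher and 1 lower in VAT of WT, beside 2.84%. The difference of knockout effects passed upward for 1 and downward for 3, beside 4.22% of all genes. KO-LysM SAT was higher than WT VAT in 1, beside 6.89%, and KO-LysM VAT was higher than WT SAT in 11 and lower in 16, beside 39.3%. Averaged over depots 11 of the 44 were higher and 18 lower in KO-LysM, beside 22.5% and 29.2% of all genes. Higher and lower counts were 2 and 6 among lectin genes, 0 and 4 among terminal genes, 1 and 4 among soluble regulators, 2 and 3 among membrane regulators, and 2 and 1 among receptors. The 4 classical genes were higher in KO-LysM: C1s1, a protease of the C1 complex (0.89 ± 0.19, adjusted p = 0.00243), C1rb, a copy of its activating protease (0.61 ± 0.09, adjusted p = 0.000265), C2, whose product joins C4 in the C3-cleaving enzyme (0.37 ± 0.13, adjusted p = 0.0286), and C1ra, at or under the olfactory background in all groups but KO-LysM VAT. With array spread as a term these calls were lost for C1s1, C1rb and C2, and C2 turned to -0.14. The membrane regulators Cd55 (0.80) and Cr1l (0.44) were also higher in KO-LysM over both depots (adjusted p = 0.00596 and 0.00396), and the membrane attack inhibitor Cd59a was lower (-0.56, adjusted p = 0.00246); with array spread as a term these calls too were lost, and Cd55 turned to -0.09. In KO-LysM VAT 6 of 9 lectin, 4 of 6 terminal and 6 of 8 soluble regulator genes lay at or under the olfactory background.

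Fcna, a ficolin that recognises sugars in the lectin pathway, was also set apart in WT SAT. It had 5.19, 5.50, 6.15 and 6.01 in KO-LysM VAT, 4.84, 5.05, 5.30 and 4.96 in KO-LysM SAT, 5.15, 5.01, 5.26 and 5.90 in WT VAT, and 7.36, 7.75, 7.75 and 7.75 in WT SAT. The WT SAT pools lay above all others. The log2 change was -2.61 ± 0.16 in KO-LysM SAT against WT SAT (adjusted p = 7.1e-08) and -2.32 ± 0.16 in WT VAT against WT SAT (adjusted p = 7.05e-07). Markers of other cells were also highest in WT SAT: T cell markers averaged 6.53 there and 5.18 to 5.70 in the other groups, B cell markers 5.69 and 4.94 to 5.34, and skeletal muscle markers 8.39 and 5.08 to 6.45. Their part in the Fcna result was not tested. Clu, which codes for clusterin, a regulator of the terminal complex, was instead high in KO-LysM SAT. It had 5.81, 6.60, 6.98 and 6.60 in KO-LysM VAT, 8.37, 8.62, 8.67 and 9.09 in KO-LysM SAT, 7.17, 7.72, 6.39 and 7.21 in WT VAT, and 6.83, 6.79, 6.54 and 6.76 in WT SAT. KO-LysM SAT was higher than WT SAT by 1.96 ± 0.26 (adjusted p = 0.000301). Seminal vesicle markers were also highest in KO-LysM SAT, and their part was not tested. Itgax, the integrin chain of complement receptor 4, was higher in KO-LysM SAT than in WT SAT (0.89 ± 0.18, adjusted p = 0.00294) and lower in KO-LysM VAT than in KO-LysM SAT (-1.04 ± 0.18, adjusted p = 0.00273). The call between the genotypes in SAT was lost with array spread as a term (0.52, adjusted p = 0.201) and on day 1 alone (0.50, adjusted p = 0.101).

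**Figure D4:**
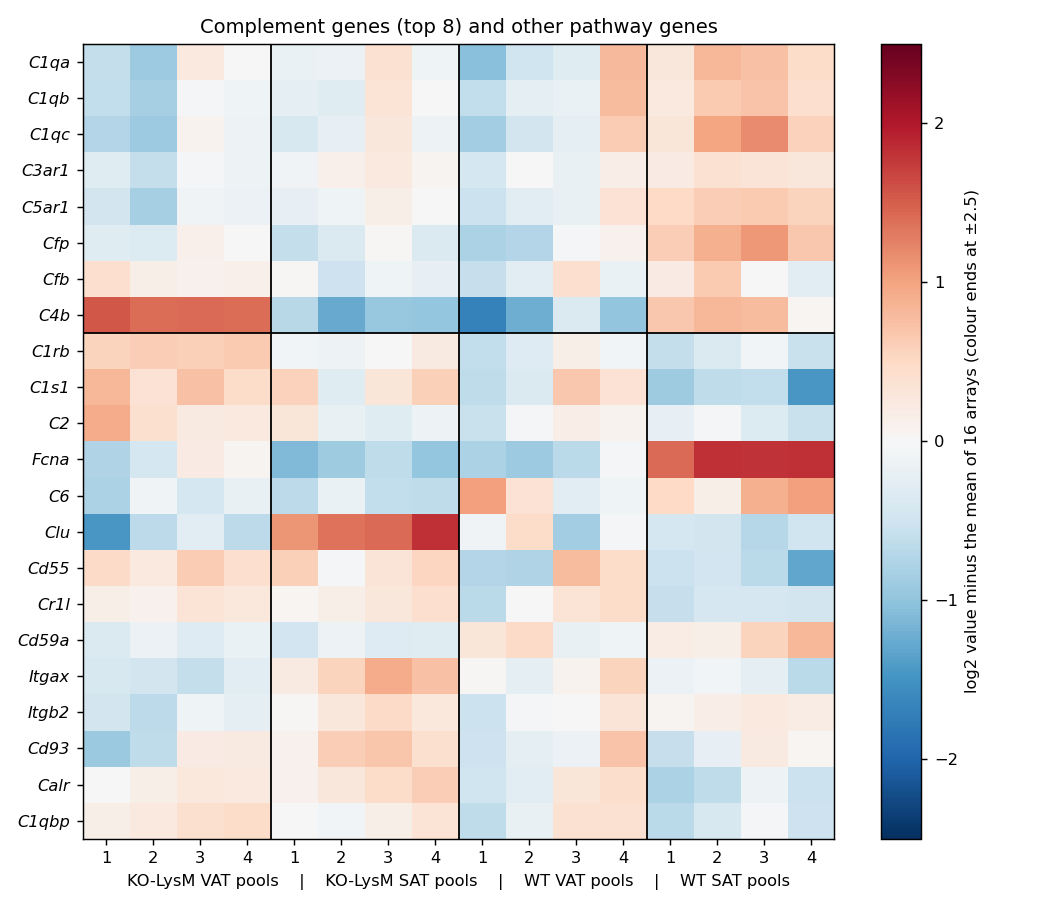
Log2 RMA values minus each gene's mean over 16 arrays (colour), for the 8 measured genes above the line and 14 other pathway genes below it, by pool in the 4 groups. The C4b row is high in KO-LysM VAT and WT SAT, the Fcna row in WT SAT and the Clu row in KO-LysM SAT.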

How the data were processed

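For 16 arrays, 1 per pool, the authors deposited log2 values per probe set; the submitters' processing notes name RMA and affy, without versions, and the array build is not given in the sources used here. RMA corrects background and normalises probes to common quantiles. Of 45141 probe sets, 28898 had 1 gene in the probe table, 551 several, and 15588 that were not controls were unnamed here. Where several probe sets named 1 of the 17097 genes, that with the highest mean was kept. Group and day entered limma 3.58.1 (R 4.3.3) over all 16 arrays, and p-values were adjusted by Benjamini-Hochberg over all genes in each of 8 comparisons at 0.05. p-values measure the spread between these pools, and the number of arrays limits precision. The members and the gene lists were chosen with earlier results of these data known. Named genes are all members, other pathway genes that passed in a described comparison, and the nearest genes by pattern. Pool numbers were not taken to pair samples, since only 18 of 24 correlations of same-numbered pools were over 0.1. Those pairs include pools of different genotypes and always share a day, so that rule cannot decide whether depots of a genotype were paired. Pairing of depots within a genotype was not fitted. The model was tried on simulated data with independent noise, few changed genes and no effect of day or array spread. Those settings differ from these arrays, so that trial does not check the counts given here. Alternatives covered covariates, days, arrays, normalization, probe sets, filters and arrays left out. Centring on macrophage markers was added after seeing the data, and a list without Lyz2 was not tried.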

Additional observations from a re-analysis of the deposited data

Results flagged for a closer look

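The difference between the VAT and SAT knockout effects passed for 6 of the genes named here: C4b (4.06), Fcna (2.99, adjusted p = 8.25e-07), Cfp (1.37), Calr (-0.73, adjusted p = 0.0222), Itgax (-1.44, adjusted p = 0.00271) and Clu (-2.58, adjusted p = 0.000631). This was tested as an interaction term in limma. Calr, which codes for the chaperone calreticulin, lost its call when any of 5 arrays was left out, with values between -0.71 and -0.69.

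In 4 of 88 groups of 4 pools, 1 pool stood far from the other 3 by Dixon's ratio (its gap to the nearest over the whole range); chance alone gives about 1 in 20. The highest C1qa value of KO-LysM SAT was 7.73 (ratio 0.891), and the highest Cfb value of KO-LysM VAT was 8.84 (ratio 0.850). C6, a terminal complement protein, had a highest value of 6.35 in KO-LysM SAT (ratio 0.909), and Fcna had a lowest value of 7.36 in WT SAT (ratio 0.984).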

How the results depend on the processing

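The calls for C4b in both KO-LysM VAT comparisons within a genotype or depot, for C4b and Cfp between the genotypes in SAT, and for both in the difference of knockout effects held with their direction under each of the 14 alternative settings that applied and with each of 16 arrays left out. Over the 90 gene results, 2428 of 2671 values under alternatives kept direction and side of the threshold, 139 lost a call, 45 gained one and 59 changed sign, 54 of those in results that had not passed. The cause of the changes below was not tested.

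Counts of the 8 genes that passed moved by over 1.5 times as follows. Between KO-LysM depots (1) the count was 3 with the compared groups alone, array weights or macrophage centring, and 2 with quantile normalization or array spread as a term. Between WT depots (4) it was 2 without the day term, 2 on day 2, 1 with the compared groups alone, 7 with quantile normalization and 8 with array spread. Between genotypes in SAT (5) it was 2 on day 1, 3 on day 2 and 8 with quantile normalization. Between genotypes in VAT (1) it was 3 on day 1, with quantile normalization or with macrophage centring, 2 with array spread, and 1 to 2 with an array left out. Averaged over depots (5) it was 3 without the day term, 1 on day 2 and 2 with macrophage centring. The difference of effects (2) had 4 with array spread. KO-LysM VAT against WT SAT (7) had 4 on day 2 and 3 with macrophage centring.

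Signs turned as follows. With macrophage centring, which moves the median of all genes to between -0.36 and 0.59, KO-LysM VAT minus KO-LysM SAT was 0.28 for C1qa, 0.25 for C1qb, 0.29 for C1qc, 0.24 for C3ar1 and 0.26 for C5ar1. KO-LysM VAT minus WT VAT was then 0.21 for C1qa, 0.078 for C1qc, 0.11 for C3ar1 and 0.040 for C5ar1. WT VAT minus WT SAT was 0.10 for Cfb, KO-LysM SAT minus WT VAT was -0.29 for Cfp and -0.22 for C4b, and KO-LysM VAT minus WT SAT was 0.096 for C3ar1. On day 2 Cfb gave 0.25 between WT depots, -0.012 between genotypes in VAT and -0.020 averaged, and KO-LysM SAT minus WT VAT gave -0.20 for Cfp and -0.27 for C4b. On day 1 C1qa gave 0.013 between genotypes in VAT and Cfb -0.14 for KO-LysM VAT minus WT SAT; median centring gave C1qa 0.0053 in VAT. With quantile normalization Cfp was -0.028 in VAT, Cfb -0.29 averaged (adjusted p = 0.0313) and -0.27 for KO-LysM VAT minus WT SAT, and KO-LysM SAT minus WT VAT was -0.22 for Cfp and -0.081 for C4b. With array spread as a term the VAT values were -0.030 for Cfp and -0.097 for Cfb, and Cd55 gave -0.013 in SAT. The averaged values with that term were -0.59 for Cfb (adjusted p = 0.0198), -0.18 for C4b, -0.14 for C2 and -0.091 for Cd55. That term also gave -0.26 for Cfp and -0.46 for C4b in KO-LysM SAT minus WT VAT. For Cfb in KO-LysM VAT minus WT SAT it gave -0.62 (adjusted p = 0.0334). Array weights gave Cfb -0.070 averaged, and -0.041 for Cfp and -0.057 for C4b in KO-LysM SAT minus WT VAT.

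With an array left out, KO-LysM VAT minus WT VAT ran from -0.24 to 0.23 for C1qa and -0.31 to 0.022 for C1qc, the averaged Cfb value from -0.075 to 0.11, and the difference of effects for C3ar1 from -0.027 to 0.15. KO-LysM SAT minus WT VAT ran from -0.044 to 0.14 for Cfp and -0.10 to 0.34 for C4b, and KO-LysM VAT minus WT SAT for Cfb from -0.093 to 0.23.

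Same-numbered pools correlated at -0.48 to 0.63 about their group means and -0.31 to 0.38 about group-and-day means (24 pairs), with 18 and 6 of the 24 over 0.1. With 2 pools in each group and day, both pools of a day must give the same value about group-and-day means. Those values therefore repeat and are not 24 separate ones. The best match in another group had the same pool number in 22 of 48 cases, and 3 of 16 arrays correlated best with their own pool number in every other group. How many such matches arise without pairing was not computed, and same-numbered pools share a day. Since not every correlation was over 0.1, pool numbers were not taken as pairs. The 24 pairs include pools of different genotypes, so that rule cannot decide whether depots of a genotype were paired. Between the depots of KO-LysM mice the values about group means were 0.42, 0.58, 0.59 and 0.17 for pools 1 to 4. In WT mice they were 0.32, -0.29, 0.47 and -0.48. About group-and-day means they were 0.34 on day 1 and -0.007 on day 2 in KO-LysM, and 0.38 and -0.02 in WT. The blocks below join same-numbered pools of both genotypes, so pairing of depots within a genotype was not fitted. With pool number as a replicate block, fixed or random, the counts were 1, 4, 5, 1, 5 and 2 between KO-LysM depots, between WT depots, between genotypes in SAT and in VAT, averaged and for the difference of effects, the same as without it. Among other pathway genes, Itgax between genotypes in VAT lost its call under both blocks and Cd93 between KO-LysM depots under the random block.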
